A study of Sus scrofa with 12 samples.

Results

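The microRNAs miR-23, miR-24 and miR-27 were followed in the small intestine of pigs of the breed labelled Big white around weaning. The members were the 5 rows of the small RNA table named ssc-miR-23a, ssc-miR-27a, ssc-miR-23b, ssc-miR-27b-3p and ssc-miR-24-3p (the prefix stands for Sus scrofa and is left off from here on), out of 337 known microRNAs. Each library's own identifier and count columns were read, and all 5 members had counts in all 12 libraries. There were 4 groups of 3 libraries, all from small RNA of intestine cells. One group was past 21 days of age and not yet weaned (feeding). The others had been weaned past that age, for 1 day, 3 days or 7 days, and are called the 1-day, 3-day and 7-day groups. Replicates 1 to 3 of a group were numbered here in the order of the sample records and are not labels of the submitters. The series is described as drawn from several generations, but the labels give no generation, sex, litter, gut segment or age at sampling for the feeding group, and they do not say that each library is a separate animal. The p-values below therefore measure the spread between libraries, which may be technical, and length of weaning cannot be told apart from age among the weaned groups.

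MicroRNAs are short RNAs that guide Argonaute proteins to matching sites in messenger RNAs and lower their output. In mammals the miR-23, miR-27 and miR-24 genes lie side by side as a paralogous pair of clusters, and each cluster is transcribed as one primary RNA that is cut into its separate microRNAs. The clusters are known from other species for roles in blood vessel growth, in T cell differentiation and in TGF-beta signalling, and miR-27 is known as a repressor of PPARG, a regulator of fat cell formation. The mature miR-23a and miR-23b are near-identical, as are miR-27a and miR-27b, while both clusters give the same mature miR-24-3p. A count of miR-24-3p is therefore the sum of both clusters. How reads that match both names of a pair were assigned is not given in the sources used here, so a single value of miR-23a, miR-23b, miR-27a or miR-27b-3p is uncertain to that extent.

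In the RefSeq annotation of Sscrofa11.1, the build the submitters' processing notes name, the a cluster lies on chromosome 2. MIR23A spans 65308117 to 65308186, MIR27A 65308294 to 65308375 and MIR24-1 65308453 to 65308524, so the 3 precursors fit in 408 bases. No annotated gene contains them, and the nearest annotated genes are MIR181C, 28080 bases below, and ZSWIM4, 2673 bases above. The b cluster lies on chromosome 10 within the protein-coding gene C10H9orf3. MIR24-2 spans 27079417 to 27079496, MIR27B 27079963 to 27080042 and MIR23B 27080197 to 27080276, a span of 860 bases. In the pig names MIR24-1 thus belongs to the a cluster and MIR24-2 to the b cluster, which is the reverse of the human numbering.

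**Figure D1:**
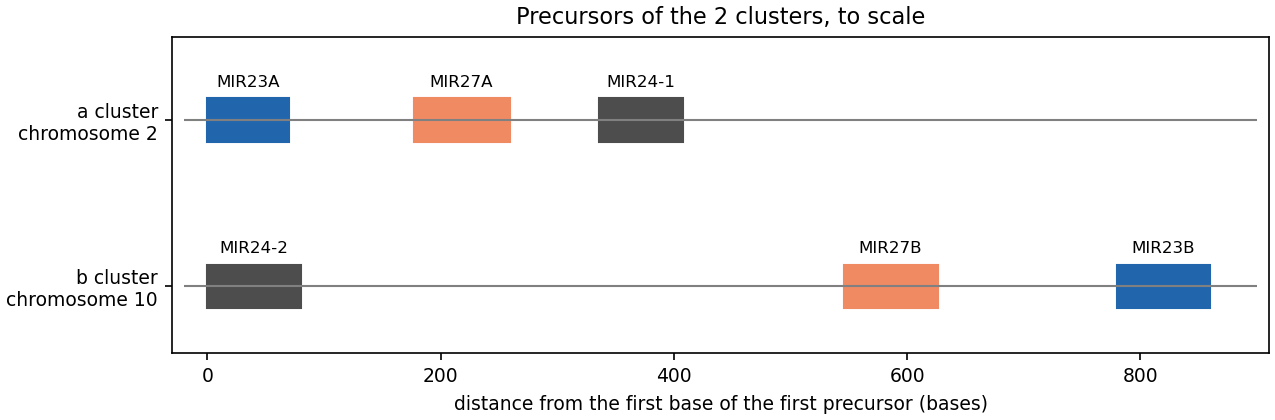
Precursors of the a cluster (chromosome 2, top line) and of the b cluster (chromosome 10, bottom line), drawn to scale as boxes against the distance in bases from the first precursor. The a cluster spans 408 bases and the b cluster 860 bases, and the order along the chromosome is MIR23A, MIR27A, MIR24-1 in one and MIR24-2, MIR27B, MIR23B in the other.

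Depth per library was 24670093 to 27784417 counts, and known microRNAs took 6987325 to 18331061 of them. The 5 members together took 2.76% to 7.42% of the known microRNA counts, with both extremes in the 7-day group (replicate 1 and replicate 2). Replicate 1 of that group stood apart from the other libraries, with 25.3% of its counts on known microRNAs, against 46.4% to 66.8% elsewhere. The tissue label was checked on a list of gut epithelium microRNAs, of which 5 of 9 names had counts and the other 4 were not used here. Their summed level was 55588 to 486974 normalised CPM (counts scaled to one common library size, with a TMM factor per library that evens out the bulk of small RNAs). By the mean over libraries miR-194b-5p and miR-192 led it. In 7-day replicate 1, with the sum of 55588, miR-192 was at 52121 and miR-194b-5p at only 1648. In the other libraries miR-194b-5p was at 25160 or more.

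In the a cluster, miR-23a was the more abundant member and ranked 14 to 24 among the known microRNAs of a library. Its level in feeding piglets was 8750, 9636 and 9879 normalised CPM (mean 9422 ± 595 SD, n = 3). After 1 day of weaning it was 8589, 11508 and 8126 (9408 ± 1834), and after 3 days 8707, 14536 and 10721 (11322 ± 2960). After 7 days it was 3334, 6688 and 8416 (6146 ± 2584). In normalised CPM all 3 libraries of 7 days lay below every feeding library and below every library of 3 days. The feeding, 1-day and 3-day groups overlapped. TMM factors were 1.633, 1.116 and 1.383 in the 7-day libraries, against 0.728 to 1.064 in the others. As a share of known microRNA counts, miR-23a was 0.81%, 0.94% and 1.47% after 7 days. It was 0.78%, 1.12% and 1.18% in feeding piglets and 1.03%, 1.33% and 1.16% after 3 days, so these groups overlapped.

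The cluster partner miR-27a, which ranked 24 to 30, had the tightest feeding group of the 5 members, at 5981, 6238 and 5946 normalised CPM (6055 ± 159 SD, n = 3). After 1 day it was 6362, 7554 and 7426 (7114 ± 654), which put each 1-day library above each feeding library. It was 4739, 8186 and 6765 after 3 days (6564 ± 1732) and 2326, 5654 and 4464 after 7 days (4148 ± 1686). In normalised CPM the 7-day libraries lay below all feeding and all 1-day libraries, and they overlapped with 3 days. As a share of known microRNA counts, miR-27a was 0.57%, 0.79% and 0.78% after 7 days and 0.66%, 0.97% and 0.80% after 1 day. In feeding piglets it was 0.53%, 0.72% and 0.71%. On that scale the feeding, 1-day and 7-day groups overlapped.

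**Figure D2:**
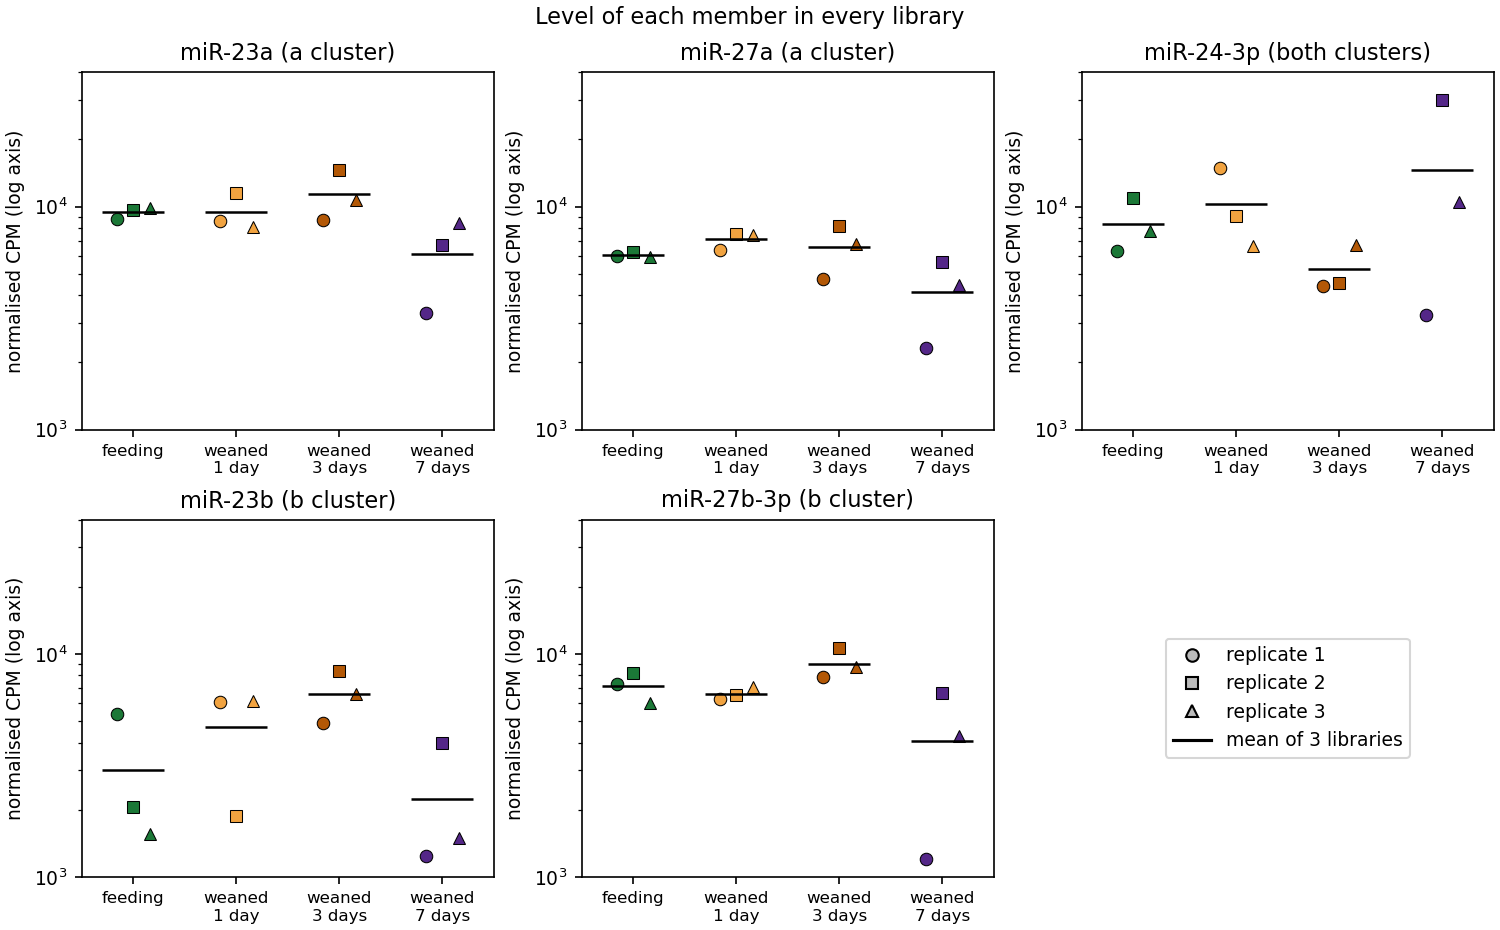
Normalised CPM on a log axis for each of the 5 members in feeding piglets and after 1, 3 and 7 days of weaning, with a symbol per replicate and a line at the mean of 3 libraries. 7-day replicate 1 is the lowest of all 12 libraries for each member, at 1205 CPM for miR-27b-3p, and 7-day replicate 2 is the highest for miR-24-3p at 29969 CPM.

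In the b cluster, miR-23b varied widely between libraries of one group. Among feeding piglets it was 5391, 2062 and 1550 normalised CPM (3001 ± 2086 SD, n = 3), and after 1 day 6071, 1874 and 6120 (4688 ± 2437). After 3 days the values were 4907, 8381 and 6613 (6633 ± 1737), and after 7 days 1239, 3982 and 1495 (2239 ± 1515). The feeding, 1-day and 7-day groups each held both high and low libraries, so they overlapped. The 3-day libraries all lay above the 7-day libraries, and they overlapped with feeding through feeding replicate 1. Its rank among known microRNAs ran from 23 to 62.

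Its partner miR-27b-3p did not split in that way. It was 7329, 8181 and 6006 normalised CPM in feeding piglets (7172 ± 1096 SD, n = 3) and 6249, 6521 and 7103 after 1 day (6624 ± 436). It stood at 7857, 10564 and 8696 after 3 days (9039 ± 1386) and at 1205, 6663 and 4286 after 7 days (4051 ± 2736). In normalised CPM the 3-day group lay above the 1-day and the 7-day groups without overlap. As a share of known microRNA counts it lay above the 1-day group but overlapped with the 7-day group. There 7-day replicate 2 was at 0.933%, against 0.926% in 3-day replicate 1. The passenger arm miR-27b-5p was rare, at 144 to 616 counts in 11 libraries and 54 counts in feeding replicate 1. In that library 2020 counts of the 3p arm stood against each count of the 5p arm, against 142 to 428 in the other libraries.

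MiR-24-3p, the product of both clusters, ranged most widely. In feeding piglets it was 6334, 10959 and 7756 normalised CPM (8350 ± 2369 SD, n = 3), and after 1 day 14938, 9085 and 6680 (10234 ± 4247). After 3 days it was 4419, 4538 and 6703 (5220 ± 1285), the lowest mean of the 4 groups. After 7 days it was 3255, 29969 and 10436 (14553 ± 13825), so the 7-day group held both the lowest and the highest library of the series. That highest library, replicate 2, had 500144 counts of miR-24-3p, which made it the known microRNA of rank 8 there.

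The 5p arms tell the precursors of miR-24 apart, as far as the shared number in their names ties each arm to its gene. MiR-24-1-5p, from the a cluster, had 152 to 484 counts per library and miR-24-2-5p, from the b cluster, 52 to 139. The a cluster arm thus outnumbered the b cluster arm in each of the 12 libraries. Its share of the 5p counts after 1 day of weaning was 85.2% (95% exact Clopper-Pearson interval 81.0% to 88.7%), 83.7% (80.5% to 86.7%) and 83.5% (79.8% to 86.7%). In the other 9 libraries it lay between 72.2% (67.4% to 76.7%) in feeding replicate 1 and 80.2% (75.3% to 84.5%) in 3-day replicate 2, so the 1-day libraries lay above all others, with intervals that overlap in part. These intervals cover counting error only. This difference was noticed in the values and was not tested, and neither 5p arm passed in any contrast (edgeR adjusted p of 0.836 to 1 for miR-24-1-5p and 0.902 to 1 for miR-24-2-5p).

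The high miR-24-3p in 7-day replicate 2 had no counterpart in the 5p arms. That library held 387 counts of the 5p arms together, within the range of 204 to 610 of all libraries, and 1292 counts of miR-24-3p per 5p count. The other 11 libraries had 219 to 795. Next highest was 1-day replicate 1.

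**Figure D3:**
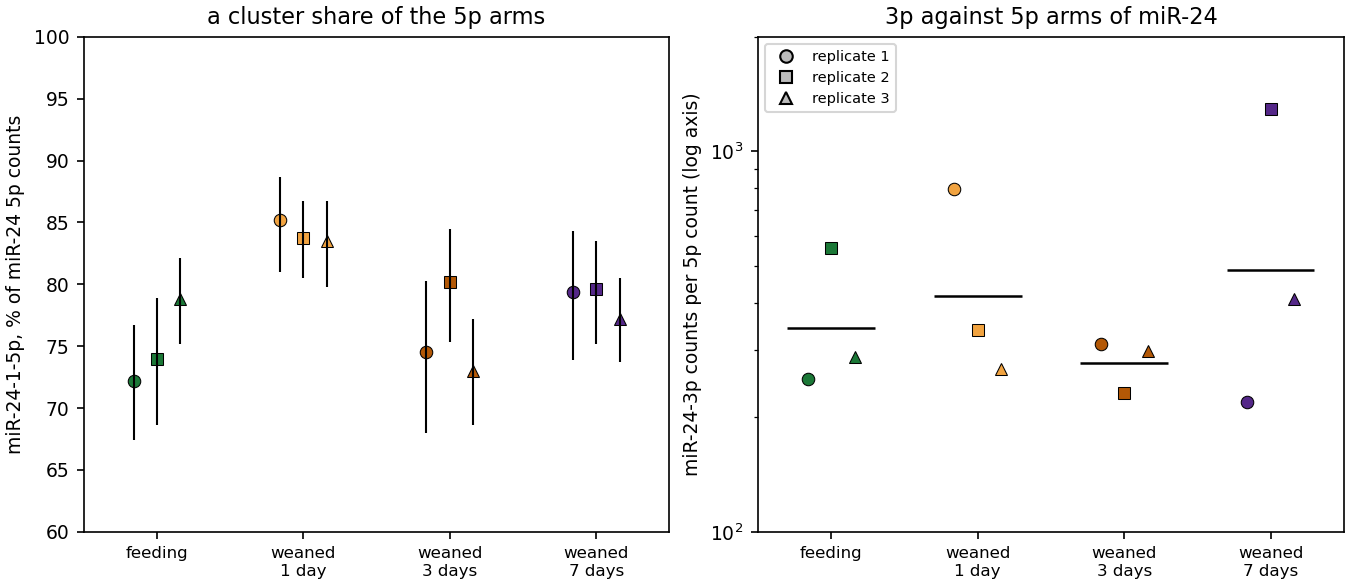
Left, the share of miR-24-1-5p (a cluster) in the counts of both miR-24 5p arms, in percent with 95% exact binomial intervals, for each library by group. Right, miR-24-3p counts per 5p count on a log axis, with a line at the geometric mean of each group, where 7-day replicate 2 stands at 1292 and the others between 219 and 795.

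The clusters were compared within each library, where the scaling of the library cancels. Mature microRNAs of a pair are of about the same length, so counts were set against each other directly; how well each sequence is captured in library preparation was not tested. MiR-23a exceeded miR-23b in 12 of 12 libraries, and miR-27a exceeded miR-27b-3p in 5 of 12. In feeding piglets the ratio of miR-23a to miR-23b was 1.62, 4.67 and 6.37, and after 1 day 1.41, 6.14 and 1.33. It was 1.77, 1.73 and 1.62 after 3 days, and 2.69, 1.68 and 5.63 after 7 days. Over all 12 libraries 7 values lay between 1.33 and 1.77, 4 between 4.67 and 6.37, and 1 at 2.69, so the values fell apart into separate ranges that cut across the groups. Only the 3-day group held no high library.

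The test of miR-23a to miR-23b among the 4 groups did not pass (exact permutation test over 369600 assignments, p = 0.564, adjusted over 2 pairs 0.564). The mean log2 ratio was 1.87 ± 1.04 in feeding piglets, 1.18 ± 1.25 after 1 day, 0.77 ± 0.07 after 3 days and 1.56 ± 0.88 after 7 days (SD, n = 3). The widest gap, 3 days against feeding, was -1.09 ± 0.60 (SE) with p = 0.3 by exact permutation, in a design of 3 against 3 that allows no p under 0.1.

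In the libraries with the 4 high values miR-23b was at 2062, 1550, 1874 and 1495 normalised CPM, low within the range of 1239 to 8381. There miR-23a was at 9636, 9879, 11508 and 8416, within its range of 3334 to 14536 but the highest of its group in 3 of the 4. Set against its cluster partner, miR-23a to miR-27a ran from 1.09 to 1.89 over the 12 libraries. MiR-23b to miR-27b-3p was 0.252 and 0.258 in feeding replicates 2 and 3, 0.287 in 1-day replicate 2 and 0.349 in 7-day replicate 3, the same libraries in which miR-23a to miR-23b was above 4. In the other 8 libraries it was 0.598 to 1.03. The count of miR-23b enters both ratios, so they are not independent. In these libraries the counts named miR-23b and miR-27b-3p, whose precursors share a primary transcript, did not keep a constant proportion. How reads matching both miR-23a and miR-23b were assigned is not given. Raw counts of both names together were 278393, 288280 and 266112 after 1 day, with miR-23b at 115291, 40372 and 114324. Together they were 210174, 178203 and 238844 in feeding piglets, 195884, 360227 and 331919 after 3 days, and 77730, 178074 and 237799 after 7 days. Whether counts moved between the names was not tested.

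The ratio of miR-27a to miR-27b-3p was steadier. It was 0.816, 0.762 and 0.990 in feeding piglets and 1.02, 1.16 and 1.05 after 1 day, groups that did not overlap. After 3 days it was 0.603, 0.775 and 0.778 and after 7 days 1.93, 0.849 and 1.04. The 1-day ratios also lay above all 3-day ratios, and so did the 7-day ratios, where replicate 1 was the highest of all libraries. The mean log2 ratio was -0.23 ± 0.20 in feeding piglets, 0.10 ± 0.10 after 1 day, -0.49 ± 0.21 after 3 days and 0.26 ± 0.62 after 7 days (SD, n = 3).

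The test among the 4 groups did not pass for this ratio (exact permutation test, p = 0.0835, adjusted over 2 pairs 0.167). Without 7-day replicate 1 it passed (p = 0.0229, adjusted 0.0458), and so it did without 7-day replicate 2 (p = 0.00552, adjusted 0.0110, exact permutation). The log2 difference from feeding was 0.33 ± 0.13 (SE) after 1 day, and that between 3 days and 1 day -0.59 ± 0.13, each at p = 0.1 by exact permutation, the smallest that 3 against 3 allows, and 0.4 adjusted over 12 differences. Between 7 and 3 days it was 0.74 ± 0.38 (p = 0.1 by exact permutation, adjusted 0.4).

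**Figure D4:**
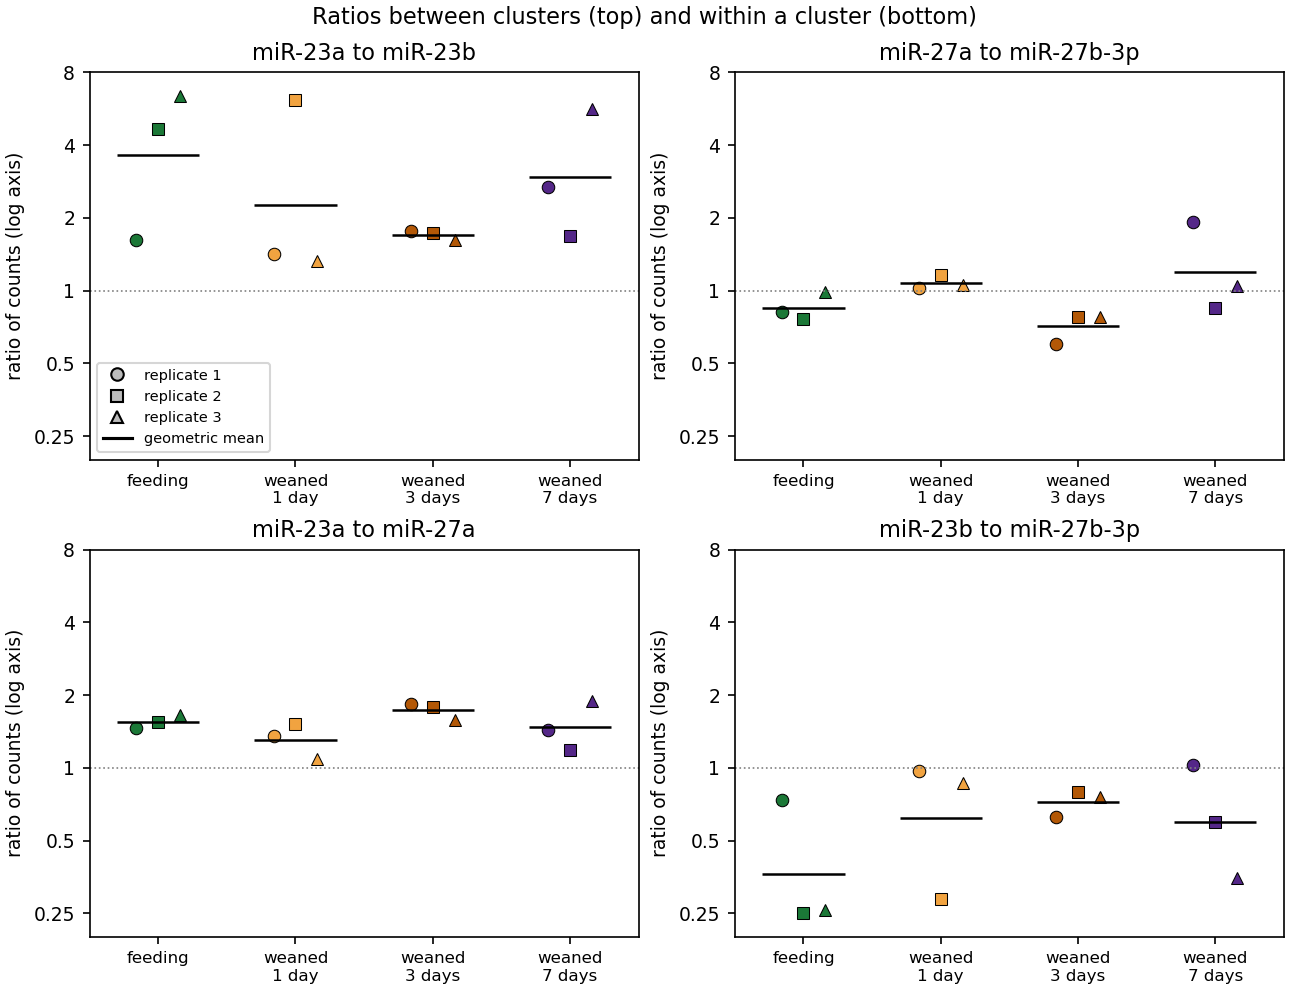
Ratios of counts on a log axis in each library by group, with a line at the geometric mean of 3 libraries; the top row sets the a cluster against the b cluster and the bottom row sets partners of one cluster against each other. The 4 libraries at 4.67 to 6.37 for miR-23a to miR-23b are those at 0.252 to 0.349 for miR-23b to miR-27b-3p, while miR-23a to miR-27a stays between 1.09 and 1.89.

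MiR-24-3p stood highest relative to miR-27b-3p after 7 days. Its ratio to miR-27b-3p was 2.70, 4.50 and 2.43 in that group, above the range of 0.430 to 2.39 in the other 9 libraries. The nearest of these was 1-day replicate 1 at 2.39, and the lowest 3 values were those of 3 days (0.562, 0.430 and 0.771). Its ratio to miR-27a was 1.40, 5.30 and 2.34 after 7 days and overlapped with the feeding values of 1.06, 1.76 and 1.30. In 7-day replicate 1, miR-24-3p and miR-27b-3p were each at their lowest of all 12 libraries, at 3255 and 1205 normalised CPM. These ratios of miR-24-3p were noticed in the values and were not tested.

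Across groups, none of the 5 members passed in any of the 6 contrasts or in the test among the 4 groups, in a fit over all 2453 small RNAs tested (edgeR quasi-likelihood test, Benjamini-Hochberg adjusted p from 0.441 to 1). The common spread within groups in that fit, as a biological coefficient of variation, was 129%. It was 45.8% in a fit over known microRNAs alone, where none of the 5 passed either. There the edgeR adjusted p for 7 days against 3 days was 0.206 for miR-23a, miR-27b-3p and miR-24-3p. For miR-23b it was 0.246 and for miR-27a 0.400. DESeq2 and limma, run as alternatives, also called 0 of the 5 in each. DESeq2 called 0.815%, 1.43% and 1.71% of all small RNAs for 1, 3 and 7 days against feeding, 1.1% for 3 days against 1 day, 2.36% and 0.652% for 7 days against 1 and 3 days, and 1.63% among the groups. For limma the share was 0.0815% for 7 days against feeding, 7 days against 1 day and among the groups, 0.0408% for 7 days against 3 days, and 0% otherwise. The share that edgeR called was 0% in each of these tests other than 7 days against feeding, where it was 0.0408%. At an unadjusted p under 0.05 the count was 0 of 5 for each contrast against feeding, for 3 days against 1 day and among the groups, where the shares of all small RNAs were 3.02% for 1 day, 5.91% for 3 days, 9.91% for 7 days, 4.81% and 7.13%. It was 1 of 5 for 7 days against 1 day (all small RNAs 10.1%) and 4 of 5 for 7 days against 3 days (7.38%).

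The contrast of 7 days against 3 days, which tests the later part of the weaning period, held the widest difference of each member other than miR-27a, which was wider for 7 days against 1 day. Lower after 7 days, short of the adjusted threshold, were miR-23b (log2 -1.57 ± 0.62 SE), miR-27b-3p (-1.16 ± 0.47) and miR-23a (-0.88 ± 0.35), each at an edgeR adjusted p of 0.632, and miR-27a (-0.66 ± 0.33, adjusted p = 0.656). MiR-24-3p was on the other side of 0 (1.48 ± 0.63, edgeR adjusted p = 0.654). Without 7-day replicate 1 the values were -1.28 for miR-23b, -0.73 for miR-27b-3p, -0.59 for miR-23a, -0.38 for miR-27a and 1.95 for miR-24-3p, and edgeR gave all 5 an adjusted p of 0.629. With all libraries, the groups did not overlap in normalised CPM for miR-23a, miR-23b and miR-27b-3p, 3 of 5 members. Of all small RNAs 4.32%, and of known microRNAs 14.6%, were lower without overlap. As a share of known microRNA counts, the groups did not overlap for miR-23b, while they did for miR-23a and miR-27b-3p. Without a filter on low counts miR-23b (edgeR adjusted p = 0.0265) and miR-24-3p (0.0407) passed, in a fit that called 2.17% of all small RNAs, and miR-23b passed among the 4 groups (0.0461), where that fit called 4.67%; over all alternatives the adjusted p of a member in this contrast ran from 0.0265 to 1.

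Against feeding, the 7-day values were -0.82 ± 0.47 (log2, SE) for miR-27b-3p, -0.62 ± 0.34 for miR-23a, -0.55 ± 0.33 for miR-27a, -0.42 ± 0.61 for miR-23b and 0.80 ± 0.62 for miR-24-3p, with edgeR adjusted p of 0.474, 0.472, 0.503, 0.910 and 0.651. Without 7-day replicate 1, in a fit over all small RNAs, these were -0.39 for miR-27b-3p, -0.32 for miR-23a, -0.26 for miR-27a, -0.13 for miR-23b and 1.27 for miR-24-3p (edgeR adjusted p of 0.572 to 1). With all libraries, the 2 a cluster members lay below feeding without overlap in normalised CPM. So did 4.53% of all small RNAs and 13.6% of known microRNAs. As a share of known microRNA counts, miR-23a and miR-27a each overlapped with feeding. After 3 days miR-23b was at 1.14 ± 0.61 (edgeR adjusted p = 0.565) and miR-24-3p at -0.68 ± 0.62 (0.870), and miR-23a, miR-27a and miR-27b-3p were at 0.27, 0.12 and 0.33. After 1 day the 5 values ran from -0.11 for miR-27b-3p to 0.64 for miR-23b, each at an edgeR adjusted p of 1. In normalised CPM, miR-27a was the 1 member of 5 above feeding without overlap at 1 day (0.23 ± 0.33). So were 5.5% of all small RNAs and 12.9% of known microRNAs. As a share of known microRNA counts, miR-27a at 1 day overlapped with feeding. These 3 contrasts share the feeding libraries.

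Between 1 and 7 days, miR-27a was at -0.78 ± 0.33 (SE, edgeR adjusted p = 0.441). It was the 1 member of 5 lower without overlap in normalised CPM, where 9.25% of all small RNAs and 21.7% of known microRNAs were. As a share of known microRNA counts it overlapped. Without 7-day replicate 1 miR-27a was at -0.49 (edgeR adjusted p = 0.562). With all libraries, miR-23b was at -1.07 ± 0.61, miR-27b-3p at -0.71 ± 0.46, miR-23a at -0.61 ± 0.34 and miR-24-3p at 0.51 ± 0.62 in that contrast (edgeR adjusted p of 0.444 to 0.836). Between 1 and 3 days, miR-24-3p was at -0.97 ± 0.62 (edgeR adjusted p = 0.596). There miR-27b-3p (0.45 ± 0.46, edgeR adjusted p = 0.897) was the 1 member higher without overlap, as were 4.32% of all small RNAs and 6.44% of known microRNAs.

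**Figure D5:**
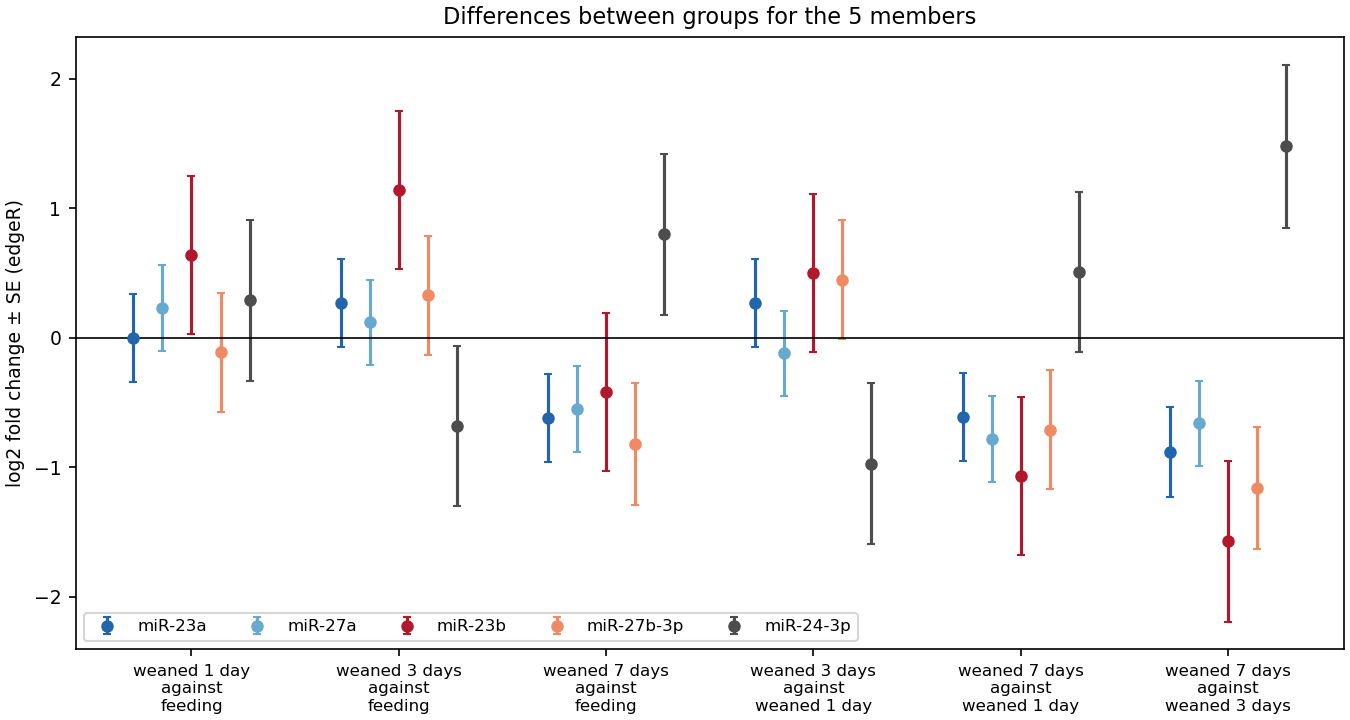
Log2 fold change ± SE (edgeR, 12 libraries in one fit) of each member in the 6 contrasts between groups. After 7 days the members made by a single cluster lie below 0 against feeding, 1 day and 3 days while miR-24-3p lies above 0, and no value passes the adjusted threshold.

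Known microRNAs as a class also lay lower after 7 days, with a median log2 difference of -0.22 for 7 days against 3 days, -0.24 for 7 days against feeding and -0.47 for 7 days against 1 day. The median over all small RNAs was 0.00, 0.32 and 0.35, and that over the 5 members was -0.88, -0.55 and -0.71. In a fit over known microRNAs alone, in which the medians of that class were 0.02, 0.00 and -0.07, the members' medians were -0.67, -0.33 and -0.42. When 7-day replicate 1 was also left out, a step chosen after seeing the data, they were -0.44, -0.14 and -0.03. In that last fit miR-24-3p was at 2.07 ± 0.47 (SE) against 3 days (edgeR adjusted p = 0.0589) and at 1.38 against feeding (0.210), where the log2 value with all libraries and all small RNAs was 1.48 and 0.80.

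MiR-24-3p after 7 days depended on 7-day replicate 2. Without it the log2 difference from feeding was -0.29 and that from 1 day -0.59, against 0.80 and 0.51 with it, and the difference from 3 days was 0.38 against 1.48. For miR-23b the difference between 7 days and feeding turned from -0.42 to 0.30 without feeding replicate 1, the feeding library in which miR-23b was high.

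Marker microRNAs of other cell types are given beside these values, since bulk samples do not tell fewer cells of a type from less RNA per cell. The 4 endothelial microRNAs, led by miR-126-3p and miR-222, summed to 20478 to 22297 normalised CPM in feeding piglets, 19078 to 25268 after 1 day, 17883 to 24028 after 3 days and 15397 to 22134 after 7 days, with a median log2 difference of -0.11 for 7 days against 3 days. Gut epithelium microRNAs summed to 226765 to 486974 in feeding piglets, 135542 to 238549 after 1 day, 275695 to 335262 after 3 days and 55588 to 101689 after 7 days, with a median of -1.49 for 7 days against 3 days and 5 of 5 below 0. Leukocyte microRNAs, of which 5 of 6 names were tested, summed to 3355 to 6993 after 3 days and 6237 to 7699 after 7 days, and were 5586 to 8572 in feeding piglets and 8887 to 11093 after 1 day. In the mesenchyme list, with 5 of 6 names tested, the sums were 8329 to 8966 in feeding piglets, 8606 to 11027, 8672 to 11954 and 4237 to 9586 after 1, 3 and 7 days. Smooth muscle microRNAs summed to 30134 to 47316 in 11 libraries and 205028 in 1-day replicate 1, of which miR-143-3p was 200265. That library had the highest miR-24-3p of the 1-day group. In 7-day replicate 2, with the highest miR-24-3p of the series, the sum was 36231. Red cell microRNAs summed to 1346 to 2844 in feeding piglets. After 1, 3 and 7 days the sums were 3067 to 4242, 2699 to 3630 and 2384 to 3639. The 1-day sums lay above all feeding sums, but miR-451 made up nearly all of each. MiR-486 overlapped, at 31.7, 26.8 and 26.3 after 1 day and 32.8, 16.9 and 27.6 in feeding piglets. For 1 day against feeding, 2 of the 3 red cell microRNAs lay above 0 and 1 below (median log2 0.13). Neuron microRNAs summed to 1162 to 1422 in feeding piglets. After 1, 3 and 7 days the sums were 922 to 1640, 987 to 1463 and 671 to 917. The 7-day sums lay below all others, the nearest being 922 in 1-day replicate 2. MiR-128 made up most of each sum, at 530, 673 and 697 in the 7-day replicates. For 7 days against feeding, 4 of the 7 neuron microRNAs lay above 0 and 3 below (median log2 0.12). The counts and median were the same against 3 days. Against 1 day, 1 lay above 0 and 6 below (median -0.76). No member of these lists passed in any contrast (edgeR), and their part in the members' values was not tested.

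By the pattern over the 12 libraries, the known microRNA most like each member was found among 287 others, by Pearson's r of log2 normalised CPM. The libraries share groups and depth, so r is a description. MiR-103 came first for both a cluster members, with r = 0.971 for miR-27a and 0.931 for miR-23a, and 0.899 and 0.746 without 7-day replicate 1. In the brackets that follow, the second r is the one without 7-day replicate 1. Next for miR-27a were miR-146b (0.930, 0.749) and miR-148b-3p (0.921, 0.696). For miR-23a they were miR-769-5p (0.896, 0.584) and miR-378b-3p (0.889, 0.621). MiR-27b-3p was most like miR-148b-3p (0.966, 0.764), let-7i (0.951, 0.748) and miR-378b-3p (0.951, 0.653). MiR-23b was most like miR-361-5p (0.834, 0.789), miR-10a-5p (0.813, 0.761) and miR-139-5p (0.800, 0.745). MiR-24-3p was most like miR-339-5p (0.916, 0.894), miR-195 (0.803, 0.737) and miR-221-5p (0.746, 0.807). The high r of miR-23a, miR-27a and miR-27b-3p thus rested in part on that library.

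Among the members themselves, r was 0.886 between miR-23a and miR-27a of the a cluster and 0.659 between miR-23b and miR-27b-3p of the b cluster. Across the clusters it was 0.903 between miR-27a and miR-27b-3p and 0.440 between miR-23a and miR-23b. Without 7-day replicate 1 these values were 0.609, 0.667, 0.597 and 0.111, so the likeness of miR-23a, miR-27a and miR-27b-3p rested in part on that library. MiR-24-3p had r between -0.002 and 0.308 with the other 4 members, and without that library r was -0.607 with miR-23a, -0.454 with miR-27b-3p, -0.282 with miR-23b and -0.197 with miR-27a.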

How the data were processed

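Small RNA of 12 intestine libraries was sequenced. Each library has its own list of small RNA names in the table, with a count and a TPM column per the file headers. Deposited counts were whole and not normalized. Deposited TPM is the same count scaled to the sum of that list without regard to length, as recomputed here to within 0.005. The submitters' processing notes name the build Sscrofa11.1, and no aligner or counting tool is given in the sources used here. Identifiers absent from a library's list were entered as 0, and totals for exons, introns and intergenic sequence (20.0% to 62.2% of a library) were left out. No member was listed more than 1 time in a library.

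Tests used edgeR 4.0.16 in R 4.3.3 with filterByExpr (minimum count 10, minimum total 15), TMM factors, 4 group means over 12 libraries and the two-sided quasi-likelihood test, with Benjamini-Hochberg adjustment over 2453 small RNAs per contrast and a threshold of 0.05. The script was tested on simulated data. DESeq2 1.42.0 and limma 3.58.1 were alternatives. Ratios were tested by exact permutation over libraries, two-sided for pairs of groups. The members, marker lists and tests were chosen with earlier results of these data known. Genes named besides the members are the other arms of the same precursors, the 3 most alike microRNAs per member (prior count 2), and at most the first 2 of each marker list. A rule to name microRNAs of equal seed was not used here.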

Additional observations from a re-analysis of the deposited data

How the results depend on the processing

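No paired analysis was possible because the labels give the groups no shared replicate numbers, and the numbers used here follow only the order of the sample records. Without a filter on low counts edgeR called 2 members for 7 days against 3 days and 1 among the 4 groups, where 0 were called otherwise; the other alternatives, single libraries left out included, called 0. Leaving out each library in turn, the exact permutation p among groups ran from 0.00552 to 0.233 for miR-27a to miR-27b-3p and from 0.170 to 0.738 for miR-23a to miR-23b. The log2 difference of miR-23a to miR-23b then ran from -0.89 to 0.10 for 7 days against feeding, -0.79 to 0.32 for 3 days against 1 day and -0.088 to 1.102 for 7 days against 1 day, and that of miR-27a to miR-27b-3p from -0.19 to 0.40 for 7 days against 1 day. Log2 differences that turned over with a library left out were those of miR-23a for 1 day against feeding (-0.18 to 0.10), of miR-27a for 3 days against feeding (-0.076 to 0.311) and against 1 day (-0.308 to 0.079), of miR-23b for 7 days against feeding (-1.15 to 0.30), and of miR-24-3p for 1 day against feeding (-0.08 to 0.52) and for 7 days against feeding (-0.29 to 1.27) and against 1 day (-0.59 to 0.98). Among known microRNAs alone miR-27a was at 0.01 for 3 days against 1 day. When 7-day replicate 1 was left out as well, a step chosen after seeing the data, it was at 0.033, miR-23b at 0.005 for 7 days against feeding and miR-27b-3p at 0.024 for 7 days against 1 day. The cause of these changes was not tested. Depth did not limit the 5 members, at 20493 counts or more per library, and it limits the 5p arms, at 52 to 616 counts.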
